A study of Mus musculus with 59 samples.

Results

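Solute carriers are membrane proteins that move ions, nutrients, vitamins, metals and metabolites across the plasma membrane and the membranes of lysosomes, mitochondria, the Golgi apparatus and the endoplasmic reticulum. The genes described here are 182 mouse Slc genes of 32070 genes listed. They were chosen by name and by level: of 358 genes with a numbered Slc symbol (3 pseudogene symbols left out), 9 were set aside by name (Slc1a2, Slc1a3, Slc2a1, Slc7a2, Slc7a11, Slc11a1, Slc11a2, Slc16a3 and Slc40a1), and of the remaining 349 those that averaged 5 TPM or more in at least 1 of 12 groups were kept. TPM expresses each gene's share of the transcripts in a library after division by length, so levels of different genes can be set side by side. Levels chose the members, so levels are a description. A gene kept through 1 treatment had to be lower in others, so counts between groups are also given without the members that reached 5 TPM only in the treatments compared.

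The libraries were made from primary cultures of microglia, macrophages that live in the brain, prepared from pups at P0 or P1. Each group combined a genotype of the kinase gene Tbk1 with a treatment. WT was Tbk1fl/fl, Cx3CR1-Cre-, HET was Tbk1fl/+, Cx3CR1-Cre+ and KO was Tbk1fl/fl, Cx3CR1-Cre+, where Cre is driven by Cx3cr1, a gene that other macrophages express too. After 16 h of plating in DMEM with 10% serum and β-mercaptoethanol, cells were left untreated (UT) or received lipopolysaccharide (LPS, a bacterial cell wall component, 100 ng/mL) or interleukin-4 (IL4, 20 ng/mL) for 24 h. A further set received the double-stranded RNA mimic poly(I:C), here pIC, for the same time, at a dose not given in the sources used here. There were 59 libraries, 5 in each of the 12 groups apart from untreated WT, which had 4 (its replicate 5 was not analysed here). The labels call the replicates independent cultures.

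Macrophages use these carriers in well-described ways. Amino acid and glucose carriers of the plasma membrane feed growth and inflammatory activation. Carriers of the lysosomal membrane return amino acids, peptides, nucleosides, sialic acid and heme from digested cargo, and some of them serve the receptors that sense nucleic acids there. Mitochondrial carriers of the SLC25 family link the cytosol to respiration, and zinc, copper and iron carriers take part in the withholding of metals from microbes.

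By family number the members fell into 36 mitochondrial carriers, 30 carriers of inorganic ions, 28 of amino acids, 22 of nucleotide sugars or acetyl-CoA, 19 of metals, 11 of sugars or polyols, 10 of organic anions or cations, 8 of vitamins or cofactors, 6 of monocarboxylates, 5 of lipids or choline, 4 of nucleosides and 3 of peptides. The class follows the family and not each protein: Slc43a3, listed with the amino acid carriers, is known as a purine nucleobase carrier, and Slc4a1ap, Slc7a6os and Slc9a3r1 match the name pattern without being transporters. Of the 182, 128 reached 5 TPM in all 12 groups. Slc4a8, Slc29a4 and Slc35g1 (chosen after their values were seen) reached it in untreated WT only. Just inside the level limit were Slc35g1 at 5.08 TPM, Slc29a4 at 5.36, Slc2a3 at 6.21, Slc5a6 at 6.38 and Slc25a14 at 6.82 in their highest group. Just outside it were Slc45a1 at 4.78, Slc22a21 at 4.60, Slc25a29 at 4.58, Slc5a3 at 4.50 and Slc25a35 at 3.96, and for these 10 genes the highest group was untreated WT. That group is also the only one without replicate 5, which is described below for untreated HET and KO.

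The most abundant member was Slc15a3, a proton-coupled peptide and histidine carrier of lysosomes, with a mean of 487 TPM over the 12 group means. It was followed by Slc25a3, the mitochondrial phosphate carrier, at 382 TPM, and Slc25a5, an ADP/ATP carrier of the inner mitochondrial membrane, at 363 TPM. In untreated WT the 4 libraries had 466, 463, 421 and 462 TPM of Slc25a3 and 446, 348, 410 and 414 TPM of Slc25a5. The leading member of the amino acid class was Slc3a2, the heavy chain that carries light chains such as Slc7a8 to the membrane, at 318 TPM. The leaders of the other classes were Slc31a2 (metals, 166 TPM), Slc48a1 (vitamins and cofactors, 120), Slc37a2 (sugars, 115), Slc44a1 (choline, 95.9), Slc35a4 (nucleotide sugars, 77.2), Slc22a17 (organic anions and cations, 74.0), the scaffold Slc9a3r1 (inorganic ions, 54.1), Slc16a10 (monocarboxylates, 48.3) and Slc29a3 (nucleosides, 48.1). Across the 12 groups the ratio of a member's highest to its lowest group mean had a median of 2.60. It exceeded 10 for 11 members and stayed under 1.5 for 17, and it was 1.22 for Slc52a2, the lowest value. The median coefficient of variation within a group was 14.6%. Together the members took between 5922 and 8176 TPM per library.

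The depth of the libraries is unknown, since TPM does not hold it, and between 12428 and 14581 genes had at least 1 TPM. Tbk1 followed its label: its group means spanned 44.0 to 90.9 TPM for WT, 31.0 to 60.5 for HET and 15.6 to 23.8 for KO. The summed level of 10 microglial markers was between 2155 and 9981 TPM per library, and no library was at 0 for any of them. Markers of other brain cells were present. The sum of 10 oligodendrocyte lineage markers was 1664 ± 575 TPM (SD, n = 4) in untreated WT, that of 10 astrocyte markers 300 ± 78.6 and that of 10 neuronal markers 408 ± 104. Untreated WT lacks replicate 5. Untreated replicate 5 of HET and KO had the fewest genes at 1 TPM of its group, 13710 and 13594. It also had the lowest oligodendrocyte lineage sum, 731 and 544 TPM. The part of this imbalance in comparisons with untreated WT was not tested. Among the defining markers, Gjb6 of astrocytes was listed at 0 in 58 libraries, Cd163 of border macrophages in 33 and Ly6c2 of monocytes in 29. In bulk libraries such as these, fewer cells of a type and less RNA per cell cannot be told apart.

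With LPS, wild-type microglia had more of the purine nucleoside carrier Slc28a2, the betaine and GABA carrier Slc6a12, the copper carriers Slc31a2 and Slc31a1, the lysosomal peptide carrier Slc15a3, the mitochondrial iron carrier Slc25a37 (mitoferrin-1) and the mitochondrial glutamate carrier Slc25a22. Among those that went down were the lysosomal carrier Slc46a3, the endosomal sodium-proton exchanger Slc9a9, the glucose-6-phosphate carrier Slc37a2 of the endoplasmic reticulum and the sialic acid exporter Slc17a5 (sialin). By limma's moderated test with Benjamini-Hochberg adjustment over all genes, called at 0.05, 30 of 182 members were higher and 108 lower, or 16.5% and 59.3%. Over all genes tested, 13.9% were called higher and 61.9% lower, near the shares of the members. The median difference of log2(TPM + 1) was -0.54 for the members and -0.59 for all genes. With median-of-ratios scaling the median of all genes was -0.06, and 75 members were higher and 61 lower, beside 31.6% and 32.3% of all genes. With quantile normalization the median was -0.13 and the counts were 62 and 70, beside 25.4% and 36.1%. Called the same way in all 3 scalings were 30 members higher and 56 lower, beside 13.8% and 27.3% of all genes. For 118 members the LPS and UT libraries did not overlap, beside 64.8% of all genes. Of the 174 members that reached 5 TPM in an IL4 or pIC group, 28 were higher and 102 lower.

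Slc28a2 (chr2:122426357-122461152, build GRCm38.p6 here and below) was at 0.652, 0.342, 0.096 and 0.194 TPM in the untreated WT libraries and at 52.1, 54.5, 28.5, 28.2 and 54.3 TPM with LPS. Every LPS library lay far above every untreated one. The difference of log2(TPM + 1) was 5.03 ± 0.38 (SE, adjusted p = 1.22e-14). Slc6a12 (chr6:121342574-121365773) was listed at 0 in 3 of 4 untreated WT libraries and at 0.614 in the other one, and LPS libraries had 12.0, 43.5, 17.6, 28.8 and 38.9 TPM (difference 4.55 ± 0.37, adjusted p = 1.2e-13). With a pseudocount of 0.1 in place of 1 that difference was 7.28, so its size rests on the pseudocount. Slc31a2 (chr4:62280393-62298412) had 29.2, 39.9, 28.2 and 27.9 TPM untreated and 299, 301, 288, 290 and 301 TPM with LPS (3.22 ± 0.10, adjusted p = 9.03e-27). No LPS library was below any untreated one.

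Among the further members of the group that went up, Slc15a3 (chr19:10842544-10857915) rose from 183 ± 9.55 TPM (SD, n = 4) to 1230 ± 179 (n = 5), a ratio of means of 6.73. The dicarboxylate carrier Slc13a3 rose from 2.32 ± 0.872 to 25.7 ± 24.2 TPM, with LPS libraries from 6.97 to 67.8 TPM. Slc13a3 reached 5 TPM in the 3 LPS groups only, so the choice of members favoured this difference, which is a description. Slc25a37 rose from 22.3 ± 2.95 to 78.8 ± 12.4 TPM and Slc25a22 from 17.8 ± 1.31 to 59.8 ± 10.1. Slc25a43, another mitochondrial carrier, went from 2.67 ± 0.882 to 8.98 ± 1.06 TPM, the copper importer Slc31a1 from 48.4 ± 2.53 to 129 ± 13.0 and the nucleotide sugar carrier Slc35d2 from 3.41 ± 1.42 to 10.0 ± 1.50. For all of these the libraries of the groups did not overlap.

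Slc46a3 (chr5:147875897-147894861) had 45.0, 37.0, 40.4 and 40.8 TPM in untreated WT and 0.983, 2.29, 0.817, 0.853 and 0.718 TPM with LPS. All LPS libraries were thus far below the untreated ones, with a difference of -4.33 ± 0.20 (adjusted p = 9.28e-22). Slc9a9 (chr9:94669557-95230453) went from 41.1, 44.4, 36.6 and 36.3 TPM to 5.44, 2.98, 4.09, 3.73 and 1.79 TPM (-3.19 ± 0.20, adjusted p = 3.65e-17). Slc37a2 (chr9:37229149-37255738) had 188, 207, 158 and 158 TPM untreated and 37.3, 38.4, 29.7, 34.4 and 32.5 TPM with LPS (-2.33 ± 0.12, adjusted p = 4.74e-20). The groups of these 3 members were far apart. The other members named by rule were the proton exchanger Slc9a7 of the Golgi network (16.5 ± 1.10 to 2.50 ± 0.321 TPM), Slc17a5 (51.8 ± 2.83 to 9.82 ± 1.26), the sodium-potassium-chloride cotransporter Slc12a2 (86.4 ± 16.0 to 18.6 ± 7.03) and the glucose carrier Slc2a8 (18.3 ± 1.91 to 3.19 ± 0.535). Slc22a23 went from 92.5 ± 25.2 to 22.3 ± 11.8 TPM, the calcium-regulated mitochondrial carrier Slc25a23 from 77.3 ± 13.7 to 18.7 ± 6.72 and the sulfate carrier Slc26a11 from 14.7 ± 1.78 to 2.96 ± 0.826. For Slc26a11 the difference was -2.01 in TPM and -1.30 after quantile normalization.

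By class, the metals stood highest, with a median of -0.15 for 19 members, 7 higher and 3 lower in all 3 scalings. The zinc importers Slc39a14 and Slc39a4 and the zinc carrier Slc30a7 were among the 7. The zinc carriers Slc39a8, Slc39a10 and Slc30a1 were the 3 (all 6 chosen after their values were seen). Slc39a4 had its highest group mean in KO with LPS, 12.4 TPM. The choice of members by level may thus have favoured its higher level with LPS. Of 36 mitochondrial carriers 5 were higher and 8 lower in all 3 scalings, of 28 amino acid carriers 4 and 6, of 30 inorganic ion carriers 4 and 11, and of 22 nucleotide sugar carriers 2 and 7, beside the 13.8% and 27.3% of all genes. In the vitamin class the reduced folate carrier Slc19a1 and the proton-coupled folate carrier Slc46a1 were both lower, at 10.0 to 2.49 TPM and 20.9 to 4.70 TPM (chosen after their values were seen). Of 5 lipid and choline carriers 4 were lower and Slc27a4, a fatty acid carrier, was higher (chosen after its values were seen), at 29.5 ± 3.22 and 60.5 ± 9.35 TPM.

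**Figure D1:**
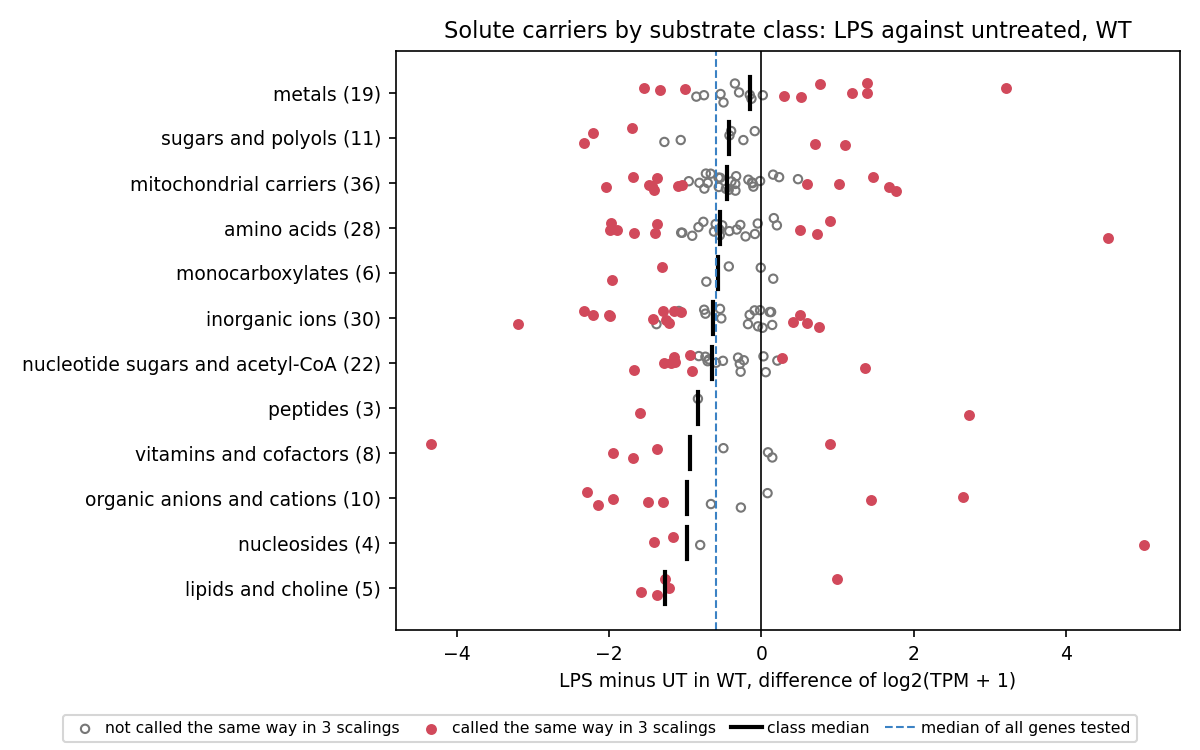
Difference between LPS and untreated WT libraries for each of the 182 solute carriers (x axis, log2(TPM + 1)), by substrate class (y axis, number of members in brackets); filled points are called the same way in 3 scalings, black bars are class medians and the dashed line is the median of all genes tested, -0.59. Slc28a2 at 5.03 and Slc6a12 at 4.55 lie farthest right, and Slc46a3 at -4.33 farthest left.

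The plot by substrate class shows that every class held members on both sides of the all-genes median. Among the members that were lower with LPS, the glutamate carrier Slc1a1 (258 to 65.2 TPM, chosen after its values were seen) is known from neurons as well. Beside these differences, 9 of 10 oligodendrocyte lineage markers, 6 of 8 astrocyte markers tested and 7 of 10 neuronal markers were called lower, and their summed levels in WT were 429 ± 255, 80.7 ± 23.6 and 138 ± 50.9 TPM with LPS. The sum of the microglial markers went from 8249 ± 521 to 2516 ± 269 TPM, with 8 of 10 called lower. The part of these cells in the solute carrier differences was not tested. In the same comparison, of 27 SLC superfamily genes with other names 3 were higher and 20 lower, of 25 ABC transporters 3 and 18, of 6 accessory chains 2 and 4, and of 4 Slco genes 2 and 2, beside 13.9% and 61.9% of all genes. With median-of-ratios scaling the counts were 9 and 13, 7 and 12, 3 and 1, and 2 and 2 in the same order, beside 31.6% and 32.3%. With quantile normalization they were 5 and 13, 5 and 13, 1 and 1, and 2 and 1, beside 25.4% and 36.1%.

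HET and KO cultures were also compared with their own untreated libraries. In HET, 32 members were higher and 112 lower with LPS, beside 14.3% and 59.7% of all genes, and with median-of-ratios scaling 74 and 65, beside 32.3% and 32.6%. In KO, 36 were higher and 102 lower, beside 13.1% and 56.5%, and with median-of-ratios scaling 72 and 52, beside 29.4% and 29.1%. In all 3 scalings 32 and 60 members were called in HET, beside 14.2% and 27.4% of all genes, and 36 and 49 in KO, beside 13% and 25.1%. Of the 174 members that reached 5 TPM in an IL4 or pIC group, 30 were higher and 107 lower in HET, and 34 and 97 in KO. Of the members called the same way in 3 scalings, 25 were higher in all 3 genotypes (83.3% of the 30 in WT and 69.4% of the 36 in KO) and 40 were lower in all 3. This overlap was not counted over all genes, so it is a description. Slc31a2 reached 303 ± 20.6 TPM in HET and 256 ± 21.4 in KO, and Slc46a3 went down to 1.20 ± 1.07 and 1.45 ± 0.395. The 3 higher members named by rule were Slc6a12, Slc28a2 (25.8 ± 24.9 TPM with LPS) and Slc31a2 in HET. In KO they were Slc6a12, Slc31a2 and the heme carrier Slc48a1, which was at 75.9 ± 5.71 TPM untreated and 434 ± 121 with LPS.

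The promoters of these members were read for short motifs of factors known from activated macrophages. Promoters here are the 250 bases before and the 50 after an annotated RefSeq start (GRCm38.p6), and 139 of the 182 members matched that table. Of the 24 members whose values are given library by library, 19 matched. The AP-1 element TGANTCA was found at 5 of these 19, at 11 of all 139 (7.91%) and at 8.97% of all genes in the table. The STAT6 element (TTC and GAA with NNNN between them) was found at 3 of the 19, at 5.76% of the members and at 8.01% of all genes. The E-box CACGTG was found at 2 of the 19 and at 26 of the 139 members, 18.7%, beside 8.09% of all genes. The interferon-stimulated response element (TTTC and TTTC with NN between them) was found at 0 of the 19, at 2 of the 139 (1.44%) and at 3.99% of all genes. The ATF4 composite element (TGATG and AA with N between them) was found at 1 of the 19, Slc9a9, at 5 of the 139 (3.60%) and at 4.51% of all genes. Both strands were searched. The STAT6 elements at Slc43a2 and Slc37a4 are not shown. The 6 stretches below hold the AP-1 element of 5 members and the STAT6 element of Slc28a2. All 6 members were among those with the highest or lowest differences of a comparison, and the stretches are given as examples. They are written 5′ to 3′ on the gene's strand, with the element in capitals, and lie at chr6:121342491-121342547 (plus strand), chr9:94669771-94669827 (plus), chr9:37255814-37255870 (minus), chr6:6217272-6217328 (minus), chr5:38483498-38483554 (minus) and chr2:122426209-122426268 (plus) in the order given.
Slc6a12: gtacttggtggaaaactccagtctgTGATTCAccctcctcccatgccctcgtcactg
Slc9a9: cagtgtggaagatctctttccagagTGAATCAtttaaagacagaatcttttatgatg
Slc37a2: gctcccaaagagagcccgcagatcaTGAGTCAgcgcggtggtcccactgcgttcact
Slc25a13: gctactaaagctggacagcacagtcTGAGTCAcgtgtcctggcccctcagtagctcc
Slc2a9: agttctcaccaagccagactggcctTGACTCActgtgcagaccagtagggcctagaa
Slc28a2: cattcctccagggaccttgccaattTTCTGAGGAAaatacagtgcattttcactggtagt

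The elements began 58, 96, 107, 130, 144 and 201 bases before the annotated start in the same order. The stretches of Slc6a12, Slc37a2 and Slc28a2 lie upstream of the annotated gene, that of Slc25a13 spans its outermost start, and those of Slc9a9 and Slc2a9 lie within the gene, before a later start. At Slc25a13 the AP-1 element overlaps an E-box that begins 125 bases before the start. A match describes the letters only. The AP-1 matches occur at Slc6a12, which was higher with LPS, and at Slc9a9 and Slc37a2, which were lower.

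With IL4, the zinc carrier Slc30a4, the urate and sugar carrier Slc2a9, the copper carrier Slc31a2 and sialin were higher in WT, and the potassium-dependent sodium-calcium exchanger Slc24a3 was lower. The counts were 8 members higher and 4 lower by limma, or 4.40% and 2.20%, near the 3.68% and 2.63% of all genes. With median-of-ratios scaling they were 13 and 2, beside 4.41% and 1.41%, and with quantile normalization 13 and 8, beside 4.6% and 2.5%. The replicate numbers paired the WT cultures, and with the replicate as a block 14 members were higher and 18 lower, 32 in all, beside 5.36% and 5.05% of all genes. For 24 members the libraries did not overlap, beside 9.55% of all genes. Of the 157 members that reached 5 TPM in an LPS or pIC group, 8 were higher and 3 lower.

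Slc30a4 (chr2:122681233-122702663) had 22.3, 13.8, 16.2 and 15.5 TPM in untreated WT and 37.3, 44.2, 39.3, 35.4 and 38.3 TPM with IL4. The lowest IL4 library was above the highest untreated one, and the difference was 1.17 ± 0.17 (adjusted p = 2.1e-06). Slc2a9 (chr5:38349272-38503147) had 5.21, 9.21, 5.63 and 6.13 TPM untreated and 11.3, 13.8, 11.8, 11.7 and 16.7 TPM with IL4 (0.91 ± 0.16, adjusted p = 8.48e-05). In Slc31a2 the rise was smaller than with LPS, from the untreated values above to 42.6, 50.7, 49.7, 47.3 and 52.8 TPM (0.63 ± 0.10, adjusted p = 2.09e-05). Slc17a5 rose from 51.8 ± 2.83 to 76.6 ± 7.09 TPM, against its lower level with LPS. Slc66a2 was at 20.0 ± 2.82 and 26.4 ± 2.40 TPM (0.39 ± 0.12, adjusted p = 0.0366), a call that was lost without any one of WT UT replicate 1 or 3 or WT IL4 replicate 1, 2 or 5. Also higher, with overlapping libraries, were the potassium-chloride cotransporter Slc12a7 (14.4 to 24.7 TPM), the aspartate-glutamate carrier Slc25a13 (8.26 to 15.3) and Slc25a43 (2.67 to 4.99), all 3 chosen after their values were seen.

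Slc24a3 (chr2:145167775-145642166) had 8.84, 8.53, 7.45 and 8.80 TPM untreated and 6.25, 3.57, 5.72, 3.65 and 4.28 TPM with IL4 (-0.75 ± 0.14, adjusted p = 0.000226). It reached 5 TPM in the 3 untreated groups only, so the choice of members favoured a lower level with IL4, and the difference is a description. Slc25a37 (chr14:69241848-69285544), which rose with LPS, had 19.2, 25.3, 20.4 and 24.2 TPM untreated and 14.8, 14.3, 15.9, 17.1 and 12.1 with IL4 (-0.55 ± 0.13, adjusted p = 0.00444). With median-of-ratios scaling the adjusted p of Slc25a37 was 0.061. Slc39a14 (chr14:70303467-70351452), a zinc and iron importer, had 17.2, 16.6, 16.2 and 16.9 TPM untreated and 15.9, 9.16, 12.1, 11.6 and 9.99 with IL4 (-0.50 ± 0.15, adjusted p = 0.044). This call was lost without any one library of the comparison except WT IL4 replicate 1, with an adjusted p of up to 0.157.

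In HET, 11 members were higher and 11 lower with IL4, beside 3.97% and 3.09% of all genes, and 11 and 6 with median-of-ratios scaling, beside 4.31% and 2.19%. The count of 22 fell to 12 without HET UT replicate 3 and likewise without replicate 4. In KO, 14 were higher and 8 lower, beside 5.38% and 3.03%, and with the replicate as a block, which paired the KO cultures, 20 were higher and 23 lower, 43 in all, beside 7.78% and 8.15%. Of the 157 members that reached 5 TPM in an LPS or pIC group, 11 were higher and 9 lower in HET and 14 and 5 in KO. Slc12a7, Slc17a5, Slc2a9, Slc30a4 and Slc31a2 were higher and Slc24a3 lower in all 3 genotypes and in all 3 scalings. In KO, Slc30a4 went from 16.9 ± 1.80 to 43.0 ± 6.74 TPM, Slc12a7 from 14.7 ± 2.94 to 29.4 ± 3.80 and the glucose carrier Slc2a6 from 12.1 ± 2.36 to 24.5 ± 4.26. The zinc carrier Slc39a8 went from 9.09 ± 1.63 to 4.85 ± 1.17 TPM and the sodium-calcium exchanger Slc8a1 from 50.2 ± 4.87 to 32.0 ± 5.12. Slc39a8 was highest in untreated HET, at 9.25 TPM, so the choice of members by level may have favoured its lower level with IL4. In HET, Slc35c2 went from 52.0 ± 4.85 to 36.8 ± 6.76 TPM. For the difference between the IL4 responses of KO and WT, limma called 0 members, beside 0% of all genes, and 0 had an unadjusted p under 0.05.

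**Figure D2:**
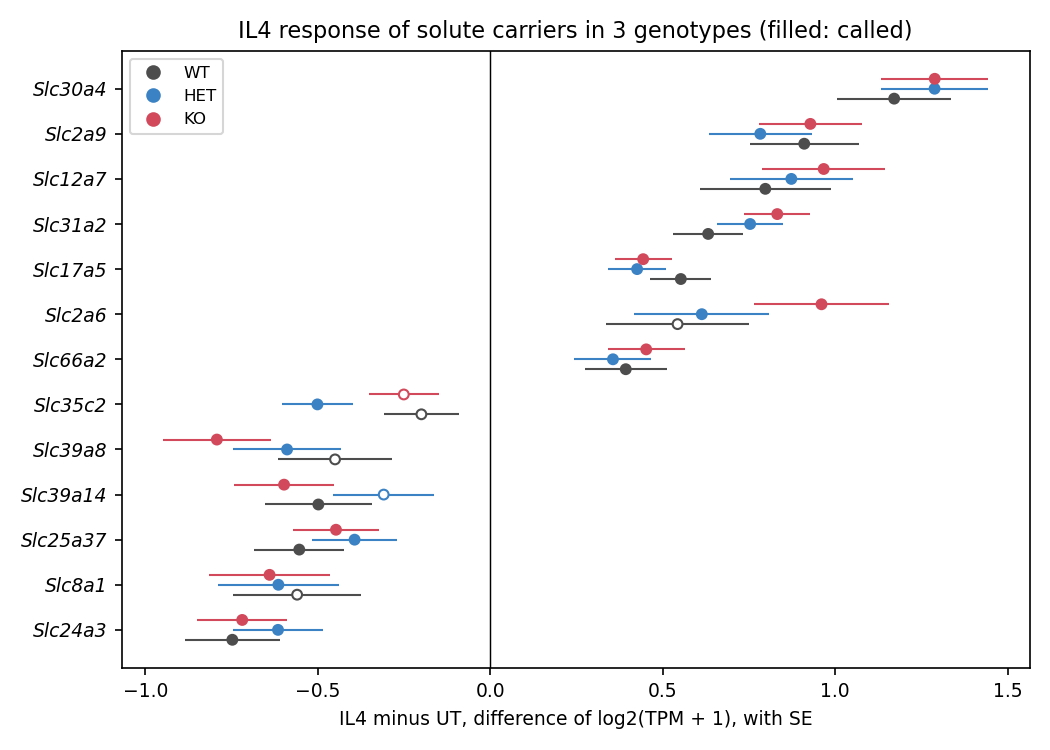
Difference between IL4 and untreated libraries (x axis, log2(TPM + 1), bars are ± SE) for 13 solute carriers that the naming rule gives in any genotype, in WT, HET and KO; filled points are called. Slc30a4 stands at 1.17 in WT and 1.29 in both HET and KO, and Slc24a3 at -0.75, -0.62 and -0.72 in WT, HET and KO.

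In the plot of the IL4 response, Slc30a4 lies farthest to the right in each genotype. Beside these differences, the border macrophage and monocyte markers summed to 151 ± 11.2 TPM untreated and 246 ± 12.8 with IL4 in WT. Of 5 markers tested, 2 were called higher. Most of the higher sum was Mrc1, at 31.1 TPM untreated and 150 with IL4, and Ccr2 was at 0.745 and 3.58. Pf4 went the other way, from 117 to 91.2 TPM, and F13a1 and Lyve1 were also lower. The microglial markers summed to 8249 ± 521 and 8774 ± 659 TPM. The part of these cells was not tested.

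Without a stimulus no member was called between genotypes. Of the 182 members, limma called 0 between untreated KO and WT, KO and HET, or HET and WT, beside 0.0314%, 0.00629% and 0.0126% of all genes, and 5, 2 and 5 members had an unadjusted p under 0.05. With IL4 it also called 0 in the same comparisons, beside 0.044%, 0.00629% and 0.0126% of all genes, with 6, 2 and 5 under 0.05. The exceptions in other scalings or with a replicate block were all Slc25a38, described below.

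Under LPS, 64 of 182 solute carriers were called between KO and WT microglia. KO cultures had almost none of the nucleoside carrier Slc28a2, less of Slc15a3 and of the fatty acid carrier Slc27a4, and more of the heme carrier Slc48a1, the amino acid carriers Slc43a2, Slc38a6, Slc1a5 and Slc36a1, and the zinc carrier Slc39a4. The test called 46 members higher in KO and 18 lower, beside 14.4% and 13.2% of all genes. With median-of-ratios scaling the counts were 39 and 25, beside 14.2% and 16.8%, and with quantile normalization 48 and 19, beside 16.6% and 13.4%. In all 3 scalings 38 and 17 were called, beside 12.5% and 11.5%. Of the 180 members that reached 5 TPM without LPS, 45 were higher and 18 lower. Slc39a4 had its highest group mean in KO with LPS, 12.4 TPM, and stayed under 5 TPM in WT with LPS. The choice of members by level may have favoured its difference, which is therefore a description. For 35 members the libraries did not overlap, beside 16.2% of all genes. WT also lacks Cre, so in these differences Cre and the chromosome that carries it cannot be told apart from the loss of Tbk1.

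Slc28a2 had 4.70, 0.463, 1.30, 0.559 and 0.342 TPM in the KO LPS libraries, against the 28.2 to 54.5 TPM of WT given above. The difference was -4.35 ± 0.36 (adjusted p = 1.82e-12), with WT 29.5 times as high as KO by group means. HET LPS libraries were widely spread, at 22.7, 25.5, 4.72, 8.82 and 67.5 TPM, and the difference from WT was not called (-1.17 ± 0.36, adjusted p = 0.479), although without HET LPS replicate 5 the difference was -1.64 and was called (adjusted p = 0.0117). Slc15a3 had 1046, 1209, 1222, 1148 and 1526 TPM in WT and 526, 380, 430, 530 and 708 in KO, with HET at 1235, 1300, 1259, 1009 and 1337. All KO libraries lay below all others, and KO minus WT was -1.28 ± 0.11 (adjusted p = 1.64e-12). Slc27a4 (chr2:29802634-29817522) had 44.2, 60.6, 65.5, 65.3 and 66.6 TPM in WT and 29.9, 28.0, 31.8, 26.4 and 32.3 in KO (-0.99 ± 0.13, adjusted p = 7.1e-08). The KO values of Slc27a4 are near the 29.5 ± 3.22 TPM of untreated WT.

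The other members lower in KO by the rule were Slc35d2 (10.0 ± 1.50 TPM in WT, 5.37 ± 1.01 in KO), the proton exchanger Slc9a8 (22.0 ± 3.10 and 13.4 ± 2.15), the mitochondrial sodium-calcium exchanger Slc8b1 (38.9 ± 6.35 and 25.0 ± 4.58) and the lactate carrier Slc16a1 (13.3 ± 2.20 and 8.99 ± 1.20). Slc38a9, an arginine-sensing carrier of lysosomes, was at 5.98 ± 0.539 and 4.29 ± 0.583 TPM. The carnitine-acylcarnitine carrier Slc25a20 was at 21.0 ± 2.12 and 17.3 ± 1.17 TPM (-0.26 ± 0.09, adjusted p = 0.0306). That call was lost without WT LPS replicate 1 or 2 or KO LPS replicate 3, with adjusted p = 0.115, 0.0519 and 0.0935.

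Slc48a1 (chr15:97784365-97792692) had 71.8, 178, 128, 154 and 198 TPM in WT with LPS and 270, 514, 343, 492 and 552 in KO, with HET at 110, 160, 251, 158 and 142. The KO libraries were all above the others, with KO minus WT at 1.60 ± 0.19 (adjusted p = 1.86e-08). Slc43a2 (chr11:75529915-75577575), a carrier of large neutral amino acids, had 24.9, 44.2, 23.8, 25.5 and 25.7 TPM in WT and 69.0, 128, 100.0, 75.2 and 65.6 in KO (1.56 ± 0.17, adjusted p = 1.24e-09). Untreated, it was at 114 ± 12.7 TPM in WT and 105 ± 11.0 in KO. LPS minus UT was -1.98 ± 0.18 in WT (adjusted p = 1.79e-12). In KO it was -0.30 ± 0.17, with overlapping libraries and no call (adjusted p = 0.112), and 0.23 with median-of-ratios scaling. Slc38a6 (chr12:73286739-73361998) had 9.48, 11.4, 6.36, 9.58 and 8.61 TPM in WT and 23.0, 31.1, 24.6, 26.3 and 21.3 in KO (1.39 ± 0.17, adjusted p = 1.55e-08). Its untreated level was 25.9 ± 7.61 TPM in WT and 23.3 ± 3.16 in KO.

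Of the 28 amino acid carriers 9 were higher and 4 lower, of which 8 and 4 in all 3 scalings. The glutamine carrier Slc1a5 was at 3.56 ± 0.993 TPM in WT and 10.9 ± 3.81 in KO, and the lysosomal amino acid exporter Slc36a1 at 14.5 ± 0.854 and 32.6 ± 6.62. Slc6a12 was at 28.2 ± 13.4 and 83.7 ± 38.4 TPM with overlapping libraries and was chosen after its values were seen (1.52 ± 0.35, adjusted p = 0.000814). Of the metal carriers 6 of 19 were higher and 0 lower, 4 in all 3 scalings: Slc39a4 (4.99 ± 1.15 and 12.4 ± 2.57 TPM), the zinc carrier Slc39a11 (10.5 ± 1.63 and 19.1 ± 3.85), the zinc exporter Slc30a1 (6.64 ± 0.896 and 10.7 ± 1.46) and Slc30a6, of which Slc30a1 and Slc30a6 were chosen after their values were seen. Of 11 sugar carriers 5 were higher and 1 lower, also in all 3 scalings. Of 36 mitochondrial carriers 9 were higher and 3 lower, of which 8 and 2 in all 3 scalings. These class counts stand beside 14.4% and 13.2% of all genes and 25.3% and 9.89% of all members. The remaining names by the rule were the nucleoside carrier Slc29a1 (13.7 ± 2.91 and 27.6 ± 3.35 TPM), Slc46a1 (4.70 ± 0.433 and 9.58 ± 1.04) and Slc17a5 (9.82 ± 1.26 and 16.1 ± 2.34).

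**Figure D3:**
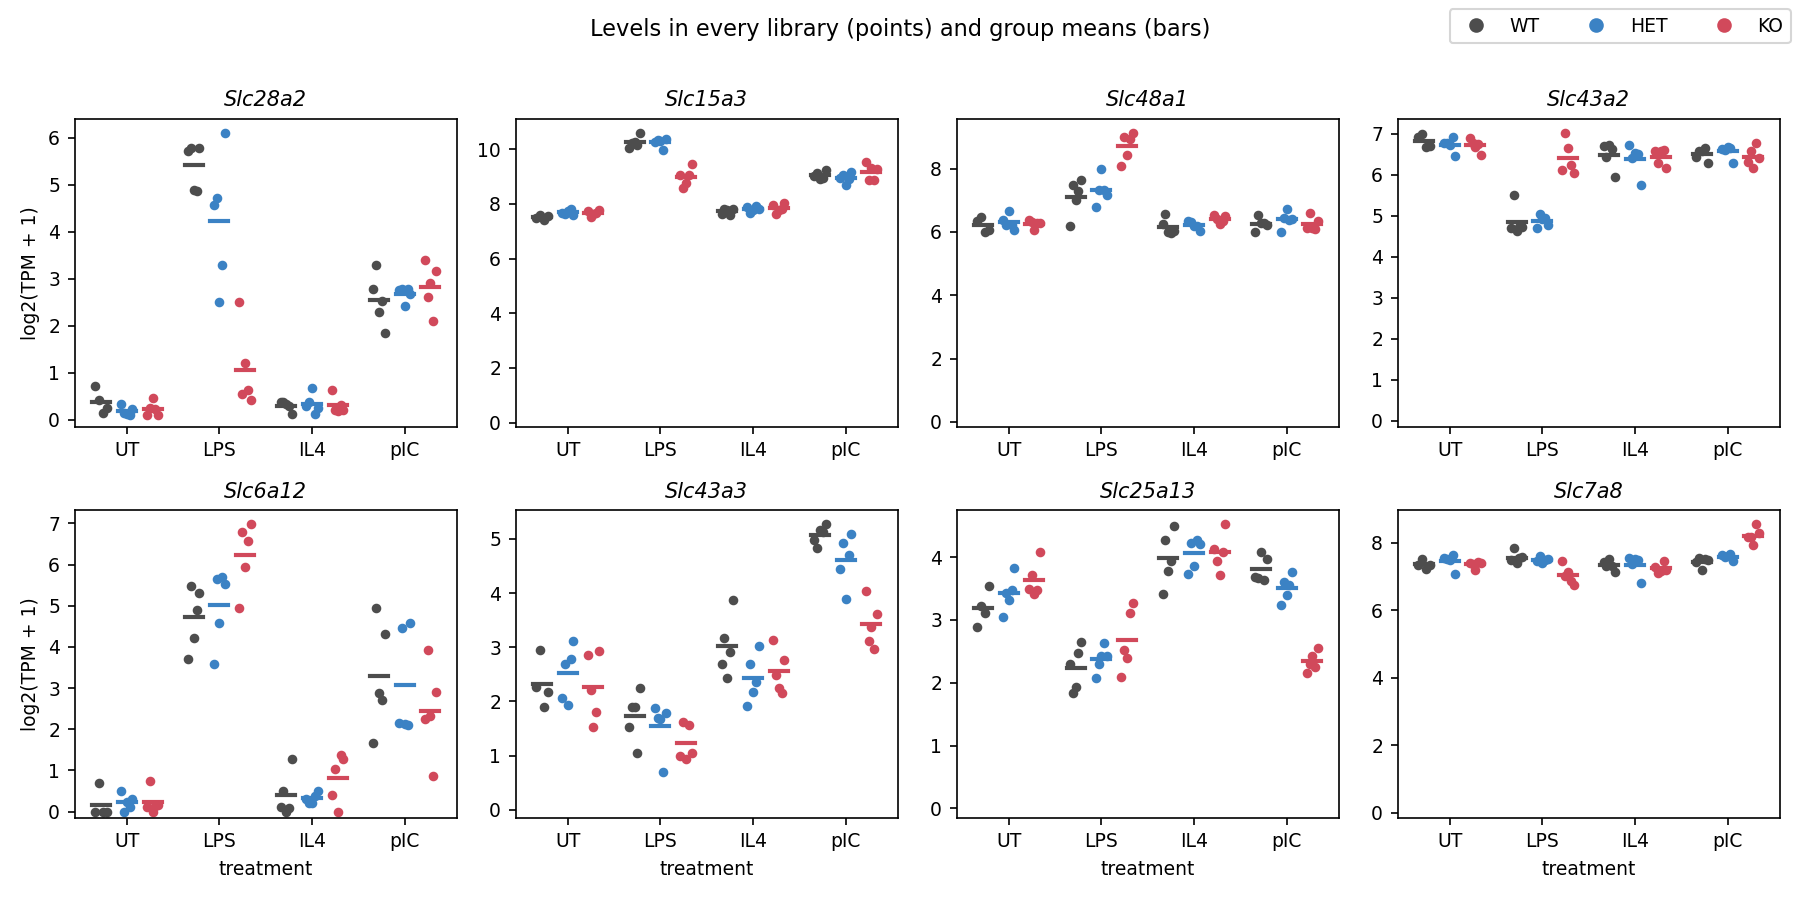
Level of 8 solute carriers as log2(TPM + 1) (y axis) in every library (points) and the group mean (bars), by treatment (x axis) and genotype (colour). Slc28a2 and Slc15a3 are lower and Slc48a1, Slc43a2 and Slc6a12 higher in KO than in WT with LPS, while Slc43a3 and Slc25a13 are lower and Slc7a8 higher in KO with pIC; pIC libraries come from a separate table.

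KO was also compared with HET, which carries the same Cre. With LPS, KO had 43 members above and 13 below HET, beside 12.5% and 11.5% of all genes, and the count of 56 was 30 when only these groups were fitted. Slc43a2 (87.6 ± 26.4 TPM in KO, 28.6 ± 2.77 in HET), Slc48a1 (434 ± 121 and 164 ± 52.6) and Slc1a5 (10.9 ± 3.81 and 3.76 ± 1.95) led those that were higher. Slc28a2 (1.47 ± 1.84 and 25.8 ± 24.9), Slc15a3 (515 ± 125 and 1228 ± 129) and Slc27a4 (29.7 ± 2.51 and 56.0 ± 6.47) led those that were lower. Between HET and WT with LPS limma called 0 members, beside 0.0126% of all genes, and 12 had an unadjusted p under 0.05. Without HET LPS replicate 5, Slc28a2 and Slc16a1 were called, Slc16a1 with a difference of -0.58 (adjusted p = 0.0237).

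The change with LPS was then compared between KO and WT. It was called different for 37 members, 29 higher and 8 lower in KO, beside 9.36% and 7.03% of all genes, and with median-of-ratios scaling for 21 and 14, beside 7.18% and 10.4%. Of the 174 members that reached 5 TPM in an IL4 or pIC group, 28 were higher and 8 lower. By limma it was 1.68 ± 0.25 for Slc43a2 (adjusted p = 3.29e-06), 1.55 ± 0.28 for Slc48a1 (adjusted p = 9.56e-05) and 1.50 ± 0.25 for Slc38a6 (adjusted p = 1.89e-05). It was -4.19 ± 0.53 for Slc28a2 (adjusted p = 1.91e-07), -1.42 ± 0.15 for Slc15a3 (adjusted p = 8.79e-09) and -0.93 ± 0.23 for Slc35d2 (adjusted p = 0.00278). Slc31a2 and Slc46a3, which LPS moved strongly in WT, were not called here, at -0.36 ± 0.14 (adjusted p = 0.0739) and 0.12 ± 0.27 (adjusted p = 0.849).

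The LPS response of HET and the KO against WT difference under LPS share no libraries and can be set side by side. Of the 32 members that LPS raised in HET in all 3 scalings, 9 were lower in KO than in WT (28.1% of the 32, 50% of the 18 lower in KO): Slc15a3, Slc25a22, Slc25a37, Slc27a4, Slc28a2, Slc35d2, Slc7a1, Slc8b1 and Slc9a8. A further 11 were higher in KO (34.4% of the 32, 23.9% of the 46): Slc20a1, Slc22a4, Slc25a10, Slc2a6, Slc2a9, Slc31a1, Slc39a1, Slc39a4, Slc3a2, Slc48a1 and Slc6a12. Of the 60 members that LPS lowered in HET in all 3 scalings, 15 were higher in KO (25%) and 1, Slc26a11, was lower. Among all members tested, 25.3% were called higher in KO and 9.89% lower. These overlaps were not counted over all genes, so they are a description.

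Of the marker lists of other cells, that of border macrophages and monocytes differed most in the KO LPS group. The astrocyte sum was 80.9 ± 31.9 TPM in KO and 80.7 ± 23.6 in WT with LPS. The oligodendrocyte lineage sum was 416 ± 168 and 429 ± 255, and the neuronal sum 126 ± 49.6 and 138 ± 50.9. Vascular and stromal markers summed to 14.6 ± 3.93 and 10.1 ± 0.747 TPM. The sum of the 7 border macrophage and monocyte markers was 1030 ± 223 TPM in KO (790 to 1334), 367 ± 243 in HET (81.2 to 628) and 140 ± 55.5 in WT (85.4 to 199), and 3 of 5 tested were called higher in KO than in WT. Most of it was Pf4, at 1006 TPM in KO and 137 in WT. Ly6c2 was at 16.4 TPM in KO and 0.729 in WT, and Mrc1 at 7.12 and 1.17. Of the markers with low levels, F13a1 was at 0.503 TPM in KO and 0.104 in WT. Lyve1 was at 0.162 and 0.0148 TPM, and Cd163 at 0.0524 and 0, in the same order. Ccr2 was lower in KO, at 0.168 TPM against 0.304 in WT. The microglial sum was 3367 ± 802 TPM in KO and 2516 ± 269 in WT, with 4 of 10 markers called higher. The part of these cells in the solute carrier differences was not tested. The other transport genes gave 11 higher and 1 lower of 27 SLC superfamily genes with other names, 13 and 1 of 25 ABC transporters, 1 and 2 of 6 accessory chains and 0 and 2 of 4 Slco genes, beside 14.4% and 13.2% of all genes. The other scalings gave the same counts except for the ABC transporters, with 15 and 1 by median-of-ratios scaling and 15 and 0 by quantile normalization.

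With pIC, KO microglia had less of the purine nucleobase carrier Slc43a3, of the mitochondrial aspartate-glutamate carrier Slc25a13 (citrin) and of the glucose-6-phosphate carrier Slc37a4, and more of the amino acid carrier Slc7a8 and the zinc exporter Slc30a1 than WT. Of 181 members tested in this table, 10 were higher and 17 lower in KO, beside 3.4% and 8.11% of all genes. The other scalings both gave 15 and 10, beside 5.2% and 3.38% of all genes with median-of-ratios scaling and 4.7% and 4.04% after quantile normalization. In all 3 scalings 10 and 9 were called, beside 3.16% and 2.82%. For 22 members the libraries did not overlap, beside 9.68% of all genes. The table holds no untreated libraries, so levels with pIC are set beside the others without a test.

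Slc43a3 (chr2:84936545-84958509) had 30.5, 27.3, 34.9, 33.9 and 37.5 TPM in WT with pIC and 15.4, 7.65, 9.40, 6.84 and 11.3 in KO, with HET at 20.8, 29.5, 13.8, 24.9 and 33.1. WT and KO were apart and HET lay between with a wide spread. KO minus WT was -1.65 ± 0.22 (adjusted p = 0.000293), and the WT mean of the untreated libraries was 4.19 ± 1.77 TPM. Slc25a13 (chr6:6041218-6217304) had 11.8, 11.6, 15.9, 11.4 and 14.7 TPM in WT and 3.47, 3.93, 4.38, 3.78 and 4.86 in KO, with HET at 8.47, 11.1, 9.49, 10.7 and 12.6 (-1.46 ± 0.12, adjusted p = 8.1e-06). KO was below every HET and WT library. Slc37a4 (chr9:44396946-44402966) had 9.45, 10.0, 9.47, 12.8 and 8.88 TPM in WT and 4.24, 7.97, 6.08, 4.68 and 5.05 in KO (-0.77 ± 0.15, adjusted p = 0.00422).

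Slc7a8 (chr14:54722215-54781886) had 170, 188, 145, 184 and 177 TPM in WT with pIC and 284, 284, 241, 371 and 310 in KO, with HET at 198, 189, 195, 203 and 175. The KO libraries were all above the others (KO minus WT 0.77 ± 0.10, adjusted p = 0.00022). Slc30a1 (chr1:191906697-191913248) had 21.1, 22.1, 21.4, 24.0 and 24.7 TPM in WT and 36.1, 40.0, 39.1, 38.1 and 36.8 in KO (0.72 ± 0.07, adjusted p = 3.37e-05). The other members higher by the rule were the aromatic amino acid carrier Slc16a10 (83.1 ± 4.45 TPM in WT, 117 ± 10.5 in KO), Slc25a22 (115 ± 13.9 and 159 ± 12.7), the taurine carrier Slc6a6 (196 ± 16.8 and 265 ± 21.0), Slc8a1 (25.2 ± 1.86 and 32.8 ± 4.40), Slc31a1 (80.2 ± 5.73 and 103 ± 8.78) and Slc25a38, described below. The potassium-chloride cotransporter Slc12a4 was at 47.1 ± 7.51 and 62.2 ± 5.04 TPM (adjusted p = 0.0408), and the call was lost without WT pIC replicate 2, 3, 4 or 5 or KO pIC replicate 1, 2, 3 or 4, with adjusted p between 0.0547 and 0.0845.

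Lower in KO by the rule were also the glutamine carriers Slc38a1 (30.5 ± 1.73 TPM in WT, 20.4 ± 2.40 in KO) and Slc38a7 of lysosomes (38.7 ± 1.73 and 28.9 ± 3.51). The mitochondrial glutathione carrier Slc25a39 was at 98.8 ± 5.40 TPM in WT and 76.7 ± 8.35 in KO. Slc25a16 (16.0 ± 1.05 and 11.8 ± 1.78), Slc35b4 (24.8 ± 2.29 and 19.7 ± 0.963) and the lysosomal nucleoside carrier Slc29a3 (93.1 ± 5.38 and 75.5 ± 4.49) were lower in TPM but not called in all 3 scalings. The difference was -0.42 in TPM and -0.27 after quantile normalization (adjusted p = 0.0913) for Slc25a16, -0.31 and -0.20 (adjusted p = 0.0567) for Slc35b4, and -0.30 and, with median-of-ratios scaling, -0.19 (adjusted p = 0.0693) for Slc29a3. By class, 6 of 36 mitochondrial carriers were lower and 2 higher, and 4 of 28 amino acid carriers were lower and 2 higher, beside 8.11% and 3.4% of all genes. In all 3 scalings 3 mitochondrial carriers were lower and 2 higher, and 4 and 2 amino acid carriers, beside 2.82% and 3.16%.

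Against HET, KO had 5 members higher and 9 lower with pIC, beside 1.65% and 3.6% of all genes, and with median-of-ratios scaling 7 and 5, beside 2.08% and 1.55%. The count of 14 was 7 when only these groups were fitted and 9 without HET pIC replicate 2. Slc7a8 (298 ± 47.5 TPM in KO, 192 ± 10.5 in HET), Slc30a1 (38.0 ± 1.62 and 25.6 ± 2.19) and Slc25a22 (159 ± 12.7 and 112 ± 11.6) were higher. Slc25a13 (4.08 ± 0.544 and 10.5 ± 1.58) was lower, as were Slc25a16 (11.8 ± 1.78 and 16.0 ± 1.16) and Slc38a1 (20.4 ± 2.40 and 27.3 ± 3.27), of which Slc25a16 was not called after quantile normalization or without HET pIC replicate 4 and Slc38a1 not without HET pIC replicate 1 or 2 (adjusted p between 0.057 and 0.0679). Between HET and WT with pIC limma called 0 members, beside 0% of all genes, and 8 had an unadjusted p under 0.05. The border macrophage and monocyte markers summed to 61.6 ± 21.9 TPM in KO and 49.6 ± 15.1 in WT with pIC, and 0 of 3 tested were called. The microglial markers summed to 7754 ± 1251 TPM in KO and 5770 ± 500 in WT. Of these 10, 3 were called higher in KO and 1 lower, and after quantile normalization 1 and 1. The part of these cells in the solute carrier differences was not tested. Of the other transport genes with pIC, 0 were higher and 1 lower of 25 SLC superfamily genes with other names, and 1 and 1 of 24 ABC transporters, beside 3.4% and 8.11% of all genes. With median-of-ratios scaling these counts were 0 and 1 and 2 and 0, and after quantile normalization 1 and 1 and 2 and 0.

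The genotype differences under LPS and under pIC come from separate libraries. Of 64 members called under LPS and 27 under pIC, 13 were called in both (20.3% and 48.1%). Of all members tested, 14.9% were called under pIC and 35.2% under LPS. The overlap was not counted over all genes, so it is a description. Higher in KO in both were Slc30a1, Slc31a1, Slc39a1 and Slc8a1, and lower in both were Slc25a20 and Slc7a1. Opposite calls were made for the other 7: Slc25a16, Slc25a39, Slc35b4, Slc35c1 and Slc38a7 were higher in KO with LPS and lower with pIC, and Slc25a22 and Slc7a8 were lower with LPS and higher with pIC. Slc7a8 had 132 ± 26.2 TPM in KO and 189 ± 22.3 in WT with LPS (-0.52 ± 0.12, adjusted p = 0.000521). Slc28a2 and Slc15a3, which had the lowest KO minus WT differences under LPS, were not called under pIC. With pIC, Slc28a2 was at 6.48 ± 2.42 TPM in KO and 5.20 ± 2.38 in WT, and Slc15a3 at 582 ± 117 and 531 ± 48.8. Slc6a12 was at 5.83 ± 5.03 and 12.6 ± 11.6 TPM (adjusted p = 0.462). No test compared the difference under LPS with that under pIC, because the tables were kept apart.

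**Figure D4:**
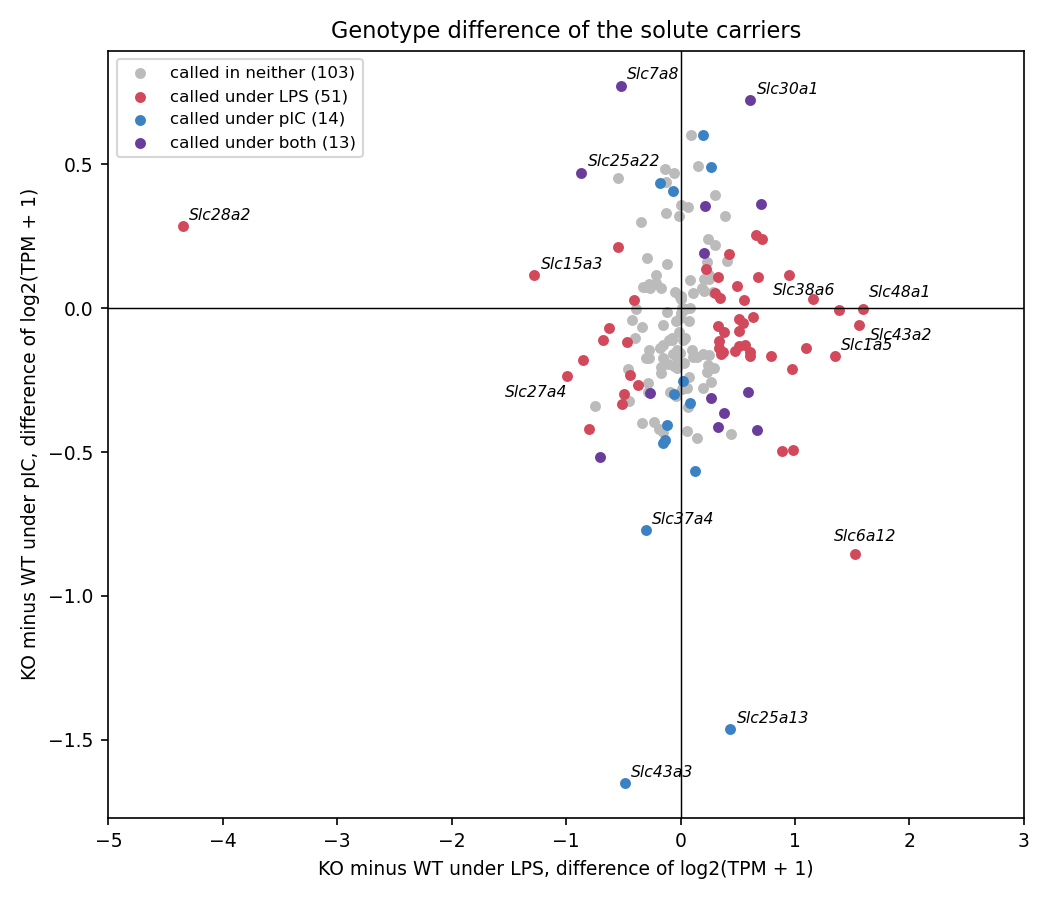
Difference between KO and WT with LPS (x axis) and with pIC (y axis), both in log2(TPM + 1), for the 181 solute carriers tested in both tables; colours show in which comparison a member was called, and 13 were called in both. Slc28a2 lies far left at -4.35 with 0.29 under pIC, and Slc43a3 (-1.65) and Slc25a13 (-1.46) lie lowest under pIC.

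In the plot of both genotype differences, 103 members were called in neither comparison, 51 with LPS only and 14 with pIC only.

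Slc25a38, the glycine importer used by mitochondria for heme synthesis, followed the genotype in another way. The gene (chr9:120110377-120126093) lies 42.1 kb from Cx3cr1 (chr9:120048683-120068296), whose promoter drives Cre in these mice. Untreated libraries had 18.2, 21.9, 19.1 and 17.9 TPM in WT, while HET had 36.1, 30.6, 31.4, 30.6 and 21.0 and KO 25.2, 28.1, 24.4, 29.3 and 20.2. With pIC they had 15.8, 18.3, 14.2, 17.6 and 15.5 TPM in WT, while HET had 29.5, 28.3, 26.6, 29.8 and 18.8 and KO 24.5, 28.7, 20.3, 25.4 and 27.9. Both Cre-carrying genotypes thus had higher means than WT. KO minus WT was called with pIC (0.60 ± 0.12, adjusted p = 0.00618). It was not called untreated (0.38 ± 0.14, adjusted p = 0.759), with LPS (0.20 ± 0.13, adjusted p = 0.318) or with IL4 (0.62 ± 0.13, adjusted p = 0.0895).

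HET minus WT of Slc25a38 was 0.59 ± 0.14 untreated (adjusted p = 0.526), 0.42 ± 0.13 with LPS (adjusted p = 0.528), 0.54 ± 0.13 with IL4 (adjusted p = 0.835) and 0.66 ± 0.12 with pIC (adjusted p = 0.215). KO minus HET was between -0.22 and 0.08 in the 4 treatments and was not called. With the replicate as a block, which paired untreated HET and WT, HET minus WT was 0.65 and was called (adjusted p = 0.026), and it was called with median-of-ratios scaling (adjusted p = 0.0277) and quantile normalization (adjusted p = 0.00712). KO minus WT with IL4 was called in both of these scalings and with the block (adjusted p between 0.00254 and 0.012). Without HET pIC replicate 5, whose 18.8 TPM is the lowest of its group, HET minus WT with pIC was 0.78 and was called (adjusted p = 0.0258). The Cre allele, its flanking chromosome and the Tbk1 genotype cannot be told apart in the differences from WT. The next members on that chromosome, Slc26a6 and Slc25a20, lie 11.1 and 11.4 Mb away. Their HET minus WT differences were between -0.14 and 0.35 with none called. KO minus WT of Slc25a20 was called with LPS (-0.26, adjusted p = 0.0306) and with pIC (-0.30, adjusted p = 0.0267). KO minus HET of Slc26a6 was called with LPS (0.52, adjusted p = 0.012).

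**Figure D5:**
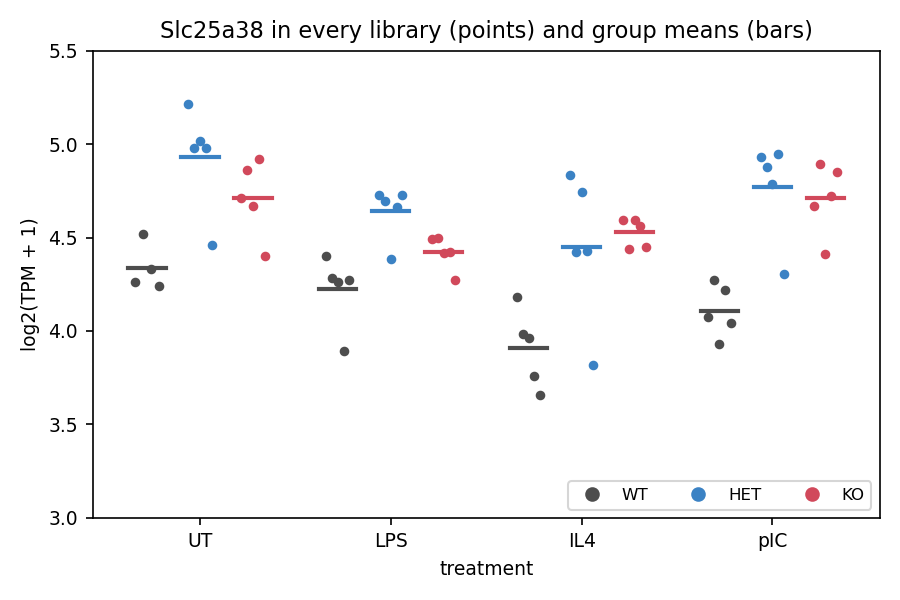
Level of Slc25a38 as log2(TPM + 1) (y axis, drawn from 3 to 5.5) in every library (points) with the group mean (bars), by treatment (x axis) and genotype (colour). In each treatment the mean of WT is below those of HET and KO; with pIC the WT libraries, 14.2 to 18.3 TPM, are all below the HET and KO libraries.

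The plot of Slc25a38 by library shows the offset between WT and the other genotypes in every treatment. It is smallest with LPS, where WT had 20.1, 18.5, 18.2, 13.9 and 18.3 TPM and KO 21.5, 21.6, 20.4, 20.5 and 18.3.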

How the data were processed

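RNA was sequenced from primary microglia in 59 libraries. The authors deposited TPM per gene, in a table of 44 untreated, LPS and IL4 libraries and another of 15 pIC libraries, with 32070 genes in each. Per the labels' protocols, libraries came from 300 ng RNA with an mRNA kit. FastQC, Trimmomatic, Picard, DRAGEN and build mm10 appear in the submitters' processing notes; versions and the counting's strand setting are not given in the sources used here. Reads of overlapping genes and near-identical copies therefore cannot be told apart, and depth is unknown. TPM fixes each library's total, so a rise in abundant genes lowers all others.

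Values were log2(TPM + 1), and differences understate changes of low genes. A gene was tested in a table where 4 or more of its libraries had 1 TPM or more (15908 and 13919; 182 and 181 members) with limma 3.58.1 (lmFit, eBayes with trend, R 4.3.3), all groups of a table in 1 fit, Benjamini-Hochberg over all genes, called at 0.05. Every adjusted p is from this test. There were 20 comparisons and none between tables. The script was tested on simulated data. The alternatives tried used a pseudocount of 0.1, no filter, median-of-ratios scaling, quantile normalization, only the groups compared, a replicate block and leaving out each library. The counts without members that reached 5 TPM only in the treatments compared were chosen after seeing the data.

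Same-numbered cultures correlated above 0.1 in every pair for LPS or IL4 against UT in WT and KO (lowest 0.117) and for untreated HET against WT (lowest 0.121), and not in every pair elsewhere. Numbers count as pairing only there.

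The members, classes and lists were chosen with earlier results of these data known. By rule, the named members are the 10 highest and 10 lowest called (3 and 3 for the HET, KO and interaction comparisons) whose libraries do not overlap and whose higher group averages 5 TPM or more; leaders of each class and members at the level limit were added. Any further name was picked with its values in view. Some members named by the rule are not reported here. Coordinates and promoters are RefSeq's (GRCm38.p6).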

Additional observations from a re-analysis of the deposited data

Results flagged for a closer look

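Among the 24 members with values in every library, groups with a library of 1 TPM or more were checked for a library far from the others, 278 checks in all, and 25 were found. Chance gives about 1 in 20. High libraries were KO LPS 1 for Slc28a2 (4.70 TPM), WT UT 2 for Slc31a2 (39.9), WT LPS 2 for Slc46a3 (2.29) and Slc43a2 (44.2), HET LPS 1 for Slc46a3 (3.07), HET IL4 2 for Slc46a3 (45.7) and KO pIC 4 for Slc46a3 (3.34). Further high ones were HET LPS 4 for Slc2a9 (15.1) and Slc38a6 (20.2), KO LPS 2 for Slc2a9 (22.1), KO IL4 3 for Slc39a14 (12.7), WT pIC 4 for Slc37a4 (12.8) and HET UT 1 for Slc25a5 (406). Low libraries were KO IL4 4 for Slc9a9 (28.5 TPM), KO LPS 1 for Slc39a14 (32.5), HET pIC 5 for Slc43a2 (77.4) and Slc25a3 (282), KO pIC 4 for Slc38a6 (21.8) and WT LPS 1 for Slc27a4 (44.2). The remaining low ones were KO UT 3 for Slc7a8 (146), HET IL4 5 for Slc7a8 (111), HET LPS 3 for Slc25a38 (19.9), HET LPS 4 for Slc43a3 (0.617), WT UT 3 for Slc25a3 (421) and WT IL4 5 for Slc25a5 (431).

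The LPS response differed between KO and WT by limma's test of the difference for 6 named members. On the log2(TPM + 1) scale it was 1.68 for Slc43a2, 1.55 for Slc48a1, 1.50 for Slc38a6, -4.19 for Slc28a2, -1.42 for Slc15a3 and -0.93 for Slc35d2. In KO LPS replicate 1, the outlying library of Slc28a2, the level was still below every WT library.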

How the results depend on the processing

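Of 109 named differences, 0 turned direction under any alternative. Outside the interaction comparisons the named members were chosen for libraries that do not overlap. The pseudocount, the filter, fitting only the groups compared or leaving out a library could therefore not turn those differences. The call was lost for 5 with median-of-ratios scaling, 4 with quantile normalization, 3 without a filter and 7 when only the groups compared were fitted, 0 with a pseudocount of 0.1 or a replicate block, and in 28 of 1115 fits without 1 library. The count of members called moved by over 1.5 times as follows; other counts did not. For IL4 against UT in WT, 12 became 21 with quantile normalization and 32 with the replicate block. With the block, IL4 against UT gave 43 in KO and 56 in HET. In HET the same-numbered cultures correlated at 0.0531 to 0.522 (mean 0.285), so not every pair was above 0.1. When only the groups compared were fitted, KO against HET gave 30 with LPS and 7 with pIC. Where 0 were called, 1 was called for untreated HET against WT and for KO against WT with IL4, each with median-of-ratios scaling, quantile normalization and the block, and 1 for HET against WT with IL4 with quantile normalization. The block changed no other count by over 1.5 times. Leaving out 1 library gave 12 to 22 for IL4 against UT in HET, 0 to 2 for HET against WT with LPS, 0 to 1 with IL4 and with pIC, and 9 to 14 for KO against HET with pIC. It gave 134 to 142 for LPS against UT in WT, 53 to 66 for KO against WT with LPS and 21 to 30 with pIC, and 33 to 44 for the difference of the LPS responses. The causes were not tested. TPM holds no depth, so precision rests on the spread between cultures.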
